A study of Rattus norvegicus with 10 samples.

Results

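Ribosomes are built in the nucleolus, and the genes described here encode the proteins that build them. Genes were taken by symbol: the families beginning Utp, Nop, Noc, Rrp, Nol and Polr1, and the single genes Imp3, Imp4, Mphosph10, Gar1, Dkc1, Fbl, Npm1, Ncl, Bop1, Pes1 and Wdr12. The rule found 56 rows of the table under 55 symbols, and where a symbol had more than 1 row the row with the highest mean was kept. All 55 genes reached the expression floor, which asks for 0.5 FPKM (fragments per kilobase of transcript, scaled to the mapped fragments of the library) or more in 5 or more of the 10 libraries, and none was left out. They make up 55 of the 15169 genes tested and of the 32623 genes in the table.

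The study asked which genes change in rat cerebral cortex after electroacupuncture (EA), a stimulation of acupoints through needles that carry a current. The EA group was 5 adult male Sprague-Dawley rats stimulated at the Baihui and Shuigou acupoints of the head with 3 mA at 2/100 Hz for 40 min. The control group was 5 rats of the same strain, sex and stage that were bound for the same 40 min with no stimulation. Rats of both groups were anaesthetised with pentobarbital and perfused with saline before the cortex was taken, and poly(A) RNA was sequenced as stranded pairs. That each library came from a separate rat is taken from its own replicate number and is not stated outright, and p-values measure the spread between these libraries.

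In the nucleolus RNA polymerase I transcribes the ribosomal DNA into a long precursor RNA. The small subunit processome folds and cuts this precursor around the U3 small nucleolar RNA (snoRNA). C/D box and H/ACA particles guided by other snoRNAs modify its nucleotides, and a further set of factors assembles the large subunit. Neurons keep large nucleoli and make ribosomes throughout life, and the genes of this pathway are known targets of the MYC family of transcription factors, which bind with their partner MAX to a short DNA element called the E-box.

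Promoters of the genes were read for such elements, since shared control sequences are the feature the symbols did not use. RefSeq promoters of the GRCr8 assembly, 250 bases before to 50 bases after the annotated start, were matched for 52 of the 55 genes (Bop1, Nol3 and Utp23 were not matched). The promoters of 6 genes are printed. They are the ribosome biogenesis genes with an unadjusted p under 0.05 in the comparison below, in the order of p: Utp11 (chr5:142230810-142231109, minus strand), Noc3l (chr1:245997659-245997958, minus strand), Utp6 (chr10:65425879-65426178, minus strand), Npm1 (chr10:18255692-18255991, minus strand), Nop56 (chr3:137929929-137930228, plus strand) and Dkc1 (chrX:157751401-157751700, plus strand). Capitals mark a match to the E-box CACGTG, to the ETS element CCGGAAGT or to the palindromic NRF1 element (capitals in Npm1) on either strand.
Utp11: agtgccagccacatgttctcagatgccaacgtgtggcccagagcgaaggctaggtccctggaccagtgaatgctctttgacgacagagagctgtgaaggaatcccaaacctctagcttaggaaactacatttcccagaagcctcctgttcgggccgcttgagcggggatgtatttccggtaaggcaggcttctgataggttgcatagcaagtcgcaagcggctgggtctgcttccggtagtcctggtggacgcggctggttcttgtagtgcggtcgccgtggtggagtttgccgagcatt
Noc3l: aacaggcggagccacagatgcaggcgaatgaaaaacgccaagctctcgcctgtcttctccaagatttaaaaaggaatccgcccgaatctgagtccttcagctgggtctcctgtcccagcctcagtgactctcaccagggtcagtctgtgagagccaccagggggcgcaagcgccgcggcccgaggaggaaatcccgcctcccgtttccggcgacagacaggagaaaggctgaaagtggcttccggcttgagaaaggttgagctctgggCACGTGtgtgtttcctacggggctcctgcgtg
Utp6: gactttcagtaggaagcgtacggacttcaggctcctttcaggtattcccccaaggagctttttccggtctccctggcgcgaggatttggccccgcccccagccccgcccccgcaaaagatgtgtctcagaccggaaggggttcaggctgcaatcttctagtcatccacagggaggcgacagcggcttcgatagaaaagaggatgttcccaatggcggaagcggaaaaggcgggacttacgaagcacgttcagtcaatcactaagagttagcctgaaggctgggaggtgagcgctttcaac
Npm1: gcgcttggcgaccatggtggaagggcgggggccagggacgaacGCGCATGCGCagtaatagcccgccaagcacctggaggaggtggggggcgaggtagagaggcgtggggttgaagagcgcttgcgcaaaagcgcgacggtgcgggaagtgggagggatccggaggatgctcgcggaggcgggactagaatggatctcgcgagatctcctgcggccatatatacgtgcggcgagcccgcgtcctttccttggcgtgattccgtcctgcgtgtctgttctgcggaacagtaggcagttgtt
Nop56: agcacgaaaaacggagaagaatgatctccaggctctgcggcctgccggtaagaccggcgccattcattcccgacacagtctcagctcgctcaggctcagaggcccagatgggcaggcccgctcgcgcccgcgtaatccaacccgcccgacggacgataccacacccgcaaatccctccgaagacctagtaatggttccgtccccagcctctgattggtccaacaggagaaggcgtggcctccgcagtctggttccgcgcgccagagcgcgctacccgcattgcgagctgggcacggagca
Dkc1: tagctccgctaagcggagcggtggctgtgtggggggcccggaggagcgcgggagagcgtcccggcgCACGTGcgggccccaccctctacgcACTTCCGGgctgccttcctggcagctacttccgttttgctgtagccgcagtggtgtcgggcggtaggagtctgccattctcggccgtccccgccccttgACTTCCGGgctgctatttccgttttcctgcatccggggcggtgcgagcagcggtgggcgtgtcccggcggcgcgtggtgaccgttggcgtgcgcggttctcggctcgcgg

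In the Noc3l promoter the only match in capitals is an E-box that begins 19 bases after the start. The Dkc1 promoter holds an E-box that begins 184 bases before the start and 2 ETS elements that begin 159 and 60 bases before it. Npm1 held the only NRF1 match among the 52 promoters, beginning 207 bases before the start. That is 1.92%, near the 1.79% of promoters of tested genes, and 0.932% of all promoters held a match. Utp11, Utp6 and Nop56 had no match to these 3 elements in their windows.

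The E-box was found in 16 of the 52 promoters (30.8%), against 6.65% of all 27457 RefSeq promoters of this length and 9.35% of the 10268 promoters whose genes were tested here. The ETS element was found in 14 (26.9%), against 4.01% of all promoters and 7.63% of those of tested genes. At least 1 of the pair was present in 26 promoters (50.0%), against 10.3% of all promoters, and both were present in 4. In 12 promoters an E-box began within 50 bases of the start. The GC box GGGCGG was found in 34 promoters (65.4%), against 62.8% for tested genes and 34.9% for all. The CCAAT box was found in 14 promoters (26.9%), against 37.2% for tested genes and 37.7% for all. The letters TATAAA of the TATA box were found in 3 (5.77%), against 6.59% and 14.3%. These matches, in Rrp12, Rrp36 and Nop58, began 237 to 246 bases before the start. No promoter of the 52 held the heat shock element, searched as GAA, TTC and GAA with 2 free bases between neighbours, which 0.736% of all promoters held. All motifs were searched on both strands, and overlapping matches of different motifs were counted for each. The median GC content of the 52 promoters was 59.1%, against 52.3% over all promoters.

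**Figure D1:**
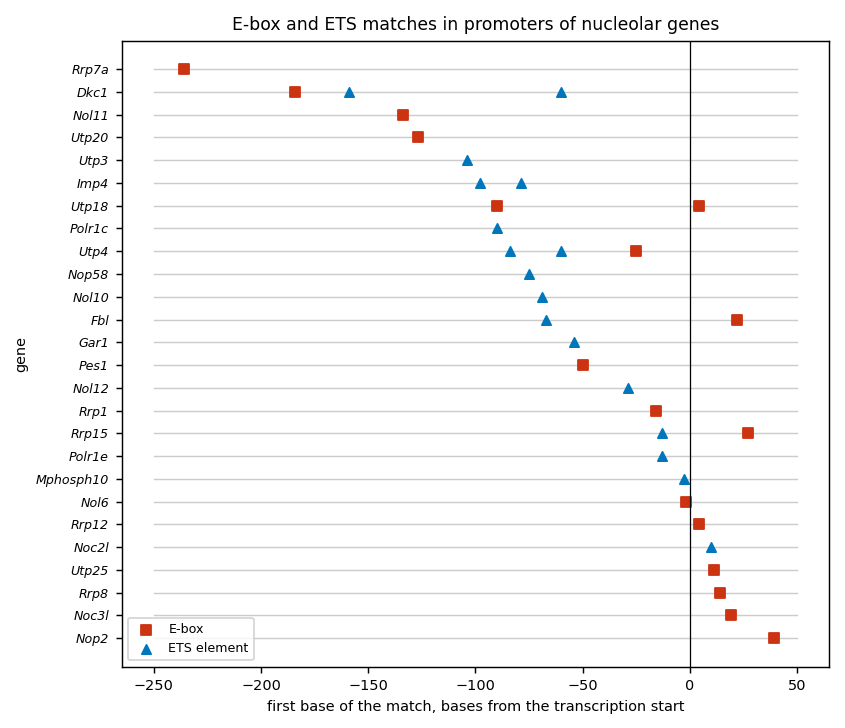
Distance of each E-box (squares) and ETS element (triangles) from the annotated transcription start, in bases, for the 26 promoters that hold at least 1 of them, with genes down the page and the window as a grey line. E-boxes began within 50 bases of the start in 12 promoters, and 4 promoters held both elements.

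A match is a stretch of letters and not a measured binding site. The 16 genes with an E-box had a median log2 fold change of 0.09 (EA over control), and the 36 without one had 0.06. The 14 genes with an ETS element had a median of 0.05, and the 38 without one had 0.07.

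The 10 libraries differed in ways that bear on the comparison. Total counts ran between 47843590 and 60941939 in EA libraries and between 55223193 and 61707722 in control libraries, the lowest being EA 3. Transcripts of the mitochondrial genome held 41.7% to 46.7% of all FPKM in EA libraries (highest in EA 3) and 38.2% to 45.1% in control libraries. EA 2 and EA 5 stood apart by non-polyadenylated structural RNA, with 188 and 298 FPKM of Rn7sl1, the signal recognition particle's RNA, against 4.70 to 11.98 in the other 8 libraries. Neuronal markers were present in every library, with a summed FPKM of 1406 to 1983 in EA rats and 1625 to 1761 in control rats. All 6 oligodendrocyte markers had negative log2 fold changes (median -0.18, 3 at an unadjusted p under 0.05), with a summed FPKM of 856 to 1112 in EA and 972 to 1414 in control rats. All 4 endothelial markers tested were also negative (median -0.11, 1 at an unadjusted p under 0.05). Summed over all 5 endothelial markers, tested or not, FPKM was 122 to 157 in EA and 155 to 169 in control rats. The blood markers had the lowest median of these classes, with all 3 tested below 0 (median -1.06, 2 at an unadjusted p under 0.05). Summed over all 4 blood markers, tested or not, FPKM was 6.29 to 15.9 in EA and 7.68 to 43.01 in control rats. Of the microglial markers 5 of 6 were below 0 (median -0.05), of the neuronal markers 5 of 7 were above 0 (median 0.04, 2 at an unadjusted p under 0.05), and of the astrocyte markers 4 of 6 were above 0 (median 0.03). No marker was at 0 in all libraries. The part of these differences in the results below was not tested, and in bulk tissue fewer cells of a type cannot be told apart from less RNA per cell.

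The nucleolar genes ran from 0.871 FPKM (Nol8) to 78.5 FPKM (Nop10) as the mean of the 10 libraries, with a median of 9.11 FPKM. Together they summed to 763 to 847 FPKM in EA rats and 777 to 821 FPKM in control rats, ranges that overlap. Rats of 1 group differed little: the median coefficient of variation over the genes was 8.58% in EA rats and 8.16% in control rats. Apart from Nol8 no gene exceeded 17.2% in EA or 18.5% in control rats.

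After EA no nucleolar gene passed edgeR's test for a change, and 2 passed that of DESeq2. The comparison used the quasi-likelihood F test of edgeR on the counts, with p adjusted by Benjamini-Hochberg over the 15169 genes. A call needs a fold change above 1.2 together with an adjusted p under 0.05. EdgeR called 0 of 55 nucleolar genes higher, where it called 3 genes of the whole table (0.0198%), and 0 lower, where it called 0 (0.0%). DESeq2 on the same counts and thresholds called 2 nucleolar genes higher, Utp11 and Noc3l, where it called 69 of all genes (0.455%), and 0 lower, where it called 97 (0.639%). At an unadjusted edgeR p under 0.05, 6 nucleolar genes lay above control (Utp11, Noc3l, Utp6, Npm1, Nop56 and Nol4), which is 10.9% against 6.59% of all genes. On the same footing 1 lay below (Dkc1), which is 1.82% against 7.15% of all genes. Without scaling factors the split over all genes moved to 668 above and 1386 below, against 1000 and 1085 with them, and the nucleolar genes stood at 6 above and 2 below. Without EA 3, the library with the fewest counts, 12 nucleolar genes lay above control (21.8%, against 7.60% of all genes in that fit).

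The 5 EA values all exceeded the 5 control values for 1 gene, Utp11 (0.85% of all genes did so), and no gene showed the opposite order (2.25% of all genes did so). The log2 fold change was above 0 in 36 of the 55 genes (65.5%), against 49.5% of all genes. The median over the nucleolar genes was 0.06, with quartiles of -0.03 and 0.13, and the median over all genes was -0.0018. Single genes were also compared by an exact permutation test of log2(FPKM + 0.1), which gave p under 0.05 before any adjustment for 5 of the 55 genes (Utp11, Noc3l, Nol8, Dkc1 and Noc2l). That is 9.09%, against 12.7% of all genes. Of the 5, Nol8 passed the expression floor through EA 1, 2, 4 and 5 and control 5 only, so its p cannot serve as support. Deviations from the control mean were then taken on the log2 scale of TMM-scaled CPM, not of FPKM. Each rat was summarised by the median deviation of its nucleolar genes. This median was 0.017, 0.114, -0.018, 0.067 and 0.071 in EA 1 to 5 and lay between -0.013 and 0.024 in the control rats. EA 3 lay just below the control range and EA 1 inside it, while EA 2, 4 and 5 lay above it. The number of genes above their control mean was 31, 41, 24, 35 and 34 in EA 1 to 5, and 26 to 33 in the control rats.

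**Figure D2:**
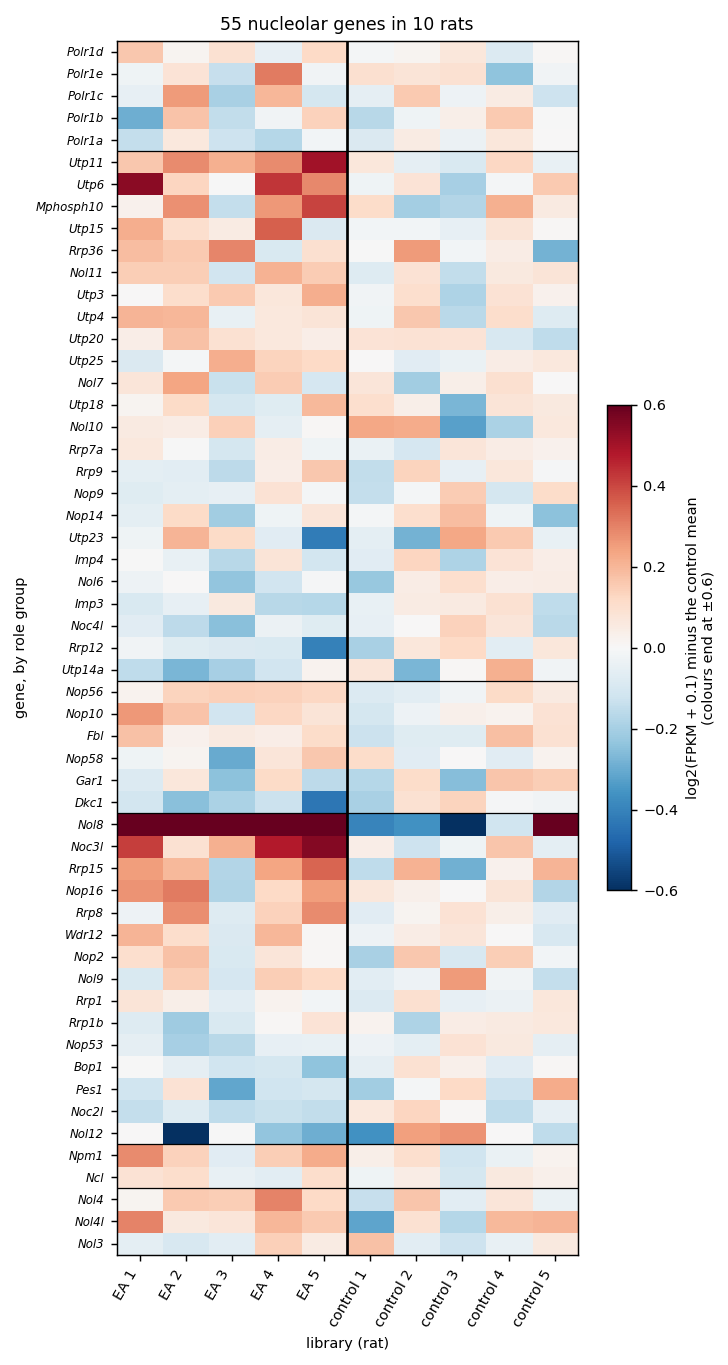
Each nucleolar gene (rows, grouped by role) in each library (columns, EA rats left of control rats), coloured by log2(FPKM + 0.1) minus the mean of the 5 control rats, with colours ending at ±0.6. Warm cells are frequent in EA 2 and least frequent in EA 3, and Utp11 is warm in all 5 EA rats. On TMM-scaled CPM, which the colours do not show, 41 of 55 genes lay above the control mean in EA 2 and 24 in EA 3.

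**Figure D3:**
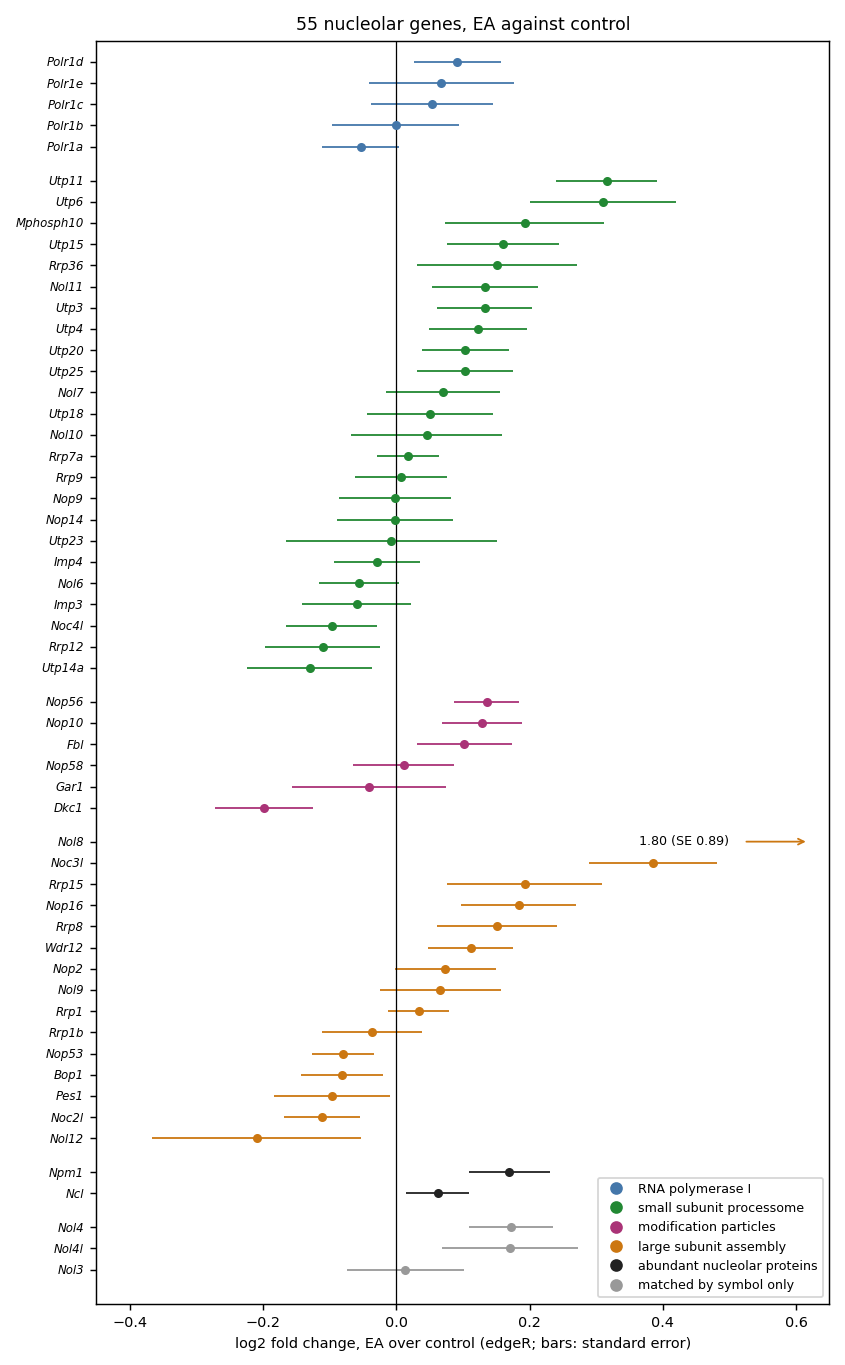
The edgeR log2 fold change (EA over control) of each of the 55 genes as a point with its standard error, grouped by role and sorted within each group; Nol8 lies off the scale at 1.80 and is drawn as an arrow. After Nol8, the highest values are those of Noc3l (0.38), Utp11 (0.32) and Utp6 (0.31), and the lowest are those of Nol12 (-0.21) and Dkc1 (-0.20).

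RNA polymerase I, which starts the pathway, was represented by 5 subunit genes between 3.03 and 21.4 FPKM, of which 3 had a log2 fold change above 0 (median 0.05). None reached an unadjusted p under 0.05. Polr1d, a subunit shared with RNA polymerase III and the most abundant of them, had 23.4, 21.2, 22.3, 20.2 and 22.7 FPKM in EA rats against 20.8, 21.2, 21.9, 19.7 and 21.0 FPKM in control rats. The groups overlapped, and its log2 fold change was 0.09 (SE 0.06, edgeR adjusted p = 0.572). Polr1a, the largest catalytic subunit, had 4.65, 5.38, 4.71, 4.55 and 5.07 FPKM in EA rats against 4.82, 5.32, 5.01, 5.39 and 5.15 FPKM in control rats, a log2 fold change of -0.05 (SE 0.06). Polr1e ranged over 2.69 to 3.71 FPKM in EA rats and 2.49 to 3.18 FPKM in control rats, with a log2 fold change of 0.07 (SE 0.11) that became -0.0017 without EA 4.

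A further 16 genes of the RNA polymerase I machinery (shared subunits, initiation factors and Ubtf, which binds the ribosomal DNA) were read from a separate list. Of these, 13 had a log2 fold change above 0 (median 0.05) and none had an unadjusted p under 0.05 in either direction. The lowest p belonged to Cd3eap, which encodes a polymerase I subunit, with 3.79 ± 0.60 FPKM in EA rats and 3.14 ± 0.69 FPKM in control rats (SD, n = 5 each; log2 fold change 0.29, SE 0.16, edgeR adjusted p = 0.467). Polr2e and Polr2k, subunits shared by the 3 polymerases of the nucleus, had log2 fold changes of -0.20 (SE 0.12) and 0.14 (SE 0.09).

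The small subunit processome held 24 of the genes, of which 15 had a log2 fold change above 0 (median 0.05, range -0.13 to 0.32). Utp11, a U3-associated protein of the processome (chr5:142666289-142681173 in Rnor_6.0, minus strand), had the lowest p of all 55 genes. It stood at 14.1, 15.3, 14.6, 15.3 and 17.9 FPKM in EA rats against 13.2, 12.1, 11.8, 13.7 and 12.2 FPKM in control rats. The lowest EA rat lay above the highest control rat, and EA 5 stood highest. The log2 fold change was 0.32 (SE 0.08), which passed under DESeq2 (adjusted p = 0.0213) and not under edgeR (adjusted p = 0.174). The exact permutation test gave p = 0.00794 for Utp11, the smallest that 252 assignments of 5 against 5 allow. Leaving out 1 rat at a time kept its log2 fold change between 0.27 and 0.35 and the edgeR adjusted p between 0.102 and 0.359.

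Utp6, a member of the UTP-B complex that joins the precursor early, had 7.75, 5.81, 5.30, 7.16 and 6.49 FPKM in EA rats against 5.21, 5.61, 4.60, 5.25 and 5.92 FPKM in control rats. EA 1, 4 and 5 lay above every control rat and EA 2 and 3 did not. Its log2 fold change was 0.31 (SE 0.11, edgeR adjusted p = 0.259, DESeq2 adjusted p = 0.137). Utp15, a member of the UTP-A complex that is also needed for transcription of the ribosomal DNA, had 6.40, 5.89, 5.69, 7.06 and 5.16 FPKM in EA rats against 5.43, 5.42, 5.31, 5.79 and 5.52 FPKM in control rats. EA 5 was the lowest of all 10 rats for Utp15 and EA 4 the highest (log2 fold change 0.16, SE 0.08, edgeR adjusted p = 0.426). Rrp7a, the most abundant processome gene, had 19.7 to 22.1 FPKM in EA rats and 19.7 to 22.2 FPKM in control rats, with a log2 fold change of 0.02 (SE 0.05) that turned to -0.0032 without scaling factors and to -0.0047 in limma on log2(FPKM + 0.1). The other 20 processome genes had log2 fold changes between -0.13 and 0.19.

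Of 39 further small subunit factors read from a list, 25 had a log2 fold change above 0 (median 0.04), 1 lay above and 4 below control at an unadjusted p under 0.05, and none was called. The 4 became 2 without EA 4, 1 without EA 5 and 0 without control 2. The 3 with the lowest p lay below control. Dhx37, a helicase that acts on the U3 snoRNA, had 4.25 ± 0.29 FPKM in EA rats and 4.95 ± 0.43 FPKM in control rats, a log2 fold change of -0.19 (SE 0.07). Wdr46, a scaffold of the processome, had 13.3 ± 1.2 FPKM in EA rats and 15.7 ± 1.7 FPKM in control rats (-0.22, SE 0.08), and Abt1 had 8.90 ± 1.10 FPKM in EA rats and 10.6 ± 0.6 FPKM in control rats (-0.23, SE 0.09). All are means with SD over 5 rats each, and edgeR adjusted p-values lay between 0.273 and 0.290.

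The particles that modify ribosomal RNA held 6 of the genes, 4 with a log2 fold change above 0 (median 0.06). Genes of the C/D box particle, which methylates ribose, did not include a called gene. Nop56, a core protein of that particle (chr3:122803772-122808558, plus strand), had 32.6, 35.3, 35.5, 35.4 and 35.1 FPKM in EA rats against 30.4, 30.8, 31.7, 34.8 and 33.4 FPKM in control rats. EA 2 to 5 lay closely together and above all control rats, while EA 1 lay among the control rats. The log2 fold change was 0.14 (SE 0.05, edgeR adjusted p = 0.262). Within its bounds lie 5 annotated snoRNA genes on the same strand. The other genes of the particle, Fbl, the methyltransferase, and Nop58, had log2 fold changes of 0.10 (SE 0.07) and 0.01 (SE 0.08).

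Dkc1 and Nop10, core proteins of the H/ACA particle that converts uridine to pseudouridine, lay on opposite sides of control. Dkc1, the pseudouridine synthase, which is also a part of telomerase, was the only one of the 55 genes below control at an unadjusted p under 0.05. It had 31.7, 28.8, 30.1, 31.3 and 25.3 FPKM in EA rats against 30.0, 36.5, 37.6, 34.1 and 33.8 FPKM in control rats. Control 1 lay among the EA rats, and the other 4 control rats lay above all EA rats. The log2 fold change was -0.20 (SE 0.07, edgeR adjusted p = 0.272, DESeq2 adjusted p = 0.164), and leaving out 1 rat at a time kept it between -0.23 and -0.14. Without EA 2 and EA 5 the log2 fold change was -0.11, and its unadjusted p was no longer under 0.05. The exact permutation test over the 10 rats gave p = 0.0317 for Dkc1.

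Nop10, a small protein that binds Dkc1 and the most abundant of the 55 genes, had 90.5, 85.0, 69.6, 82.2 and 79.7 FPKM in EA rats against 70.3, 74.0, 77.1, 76.6 and 80.1 FPKM in control rats. EA 3 was the lowest of all 10 rats and EA 1 the highest (log2 fold change 0.13, SE 0.06, edgeR adjusted p = 0.374). Gar1, another core protein of the particle, had a log2 fold change of -0.04 (SE 0.12). The remaining core protein, Nhp2, is outside the symbol rule and did not reach the expression floor. Its counts were 0 in all 5 EA rats and 0, 751, 0, 1013 and 714 in control 1 to 5, a pattern of presence and absence within the control group, so no level is read from it. Naf1, which assembles H/ACA particles, was the only one of 11 further snoRNP factors at an unadjusted p under 0.05, with 5.62 ± 0.54 FPKM in EA rats and 4.91 ± 0.36 FPKM in control rats (SD, n = 5 each; log2 fold change 0.22, SE 0.07, edgeR adjusted p = 0.247). In that list Pih1d1, a chaperone subunit, and Coil, the marker protein of Cajal bodies, had log2 fold changes of -0.26 (SE 0.15) and 0.17 (SE 0.10).

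**Figure D4:**
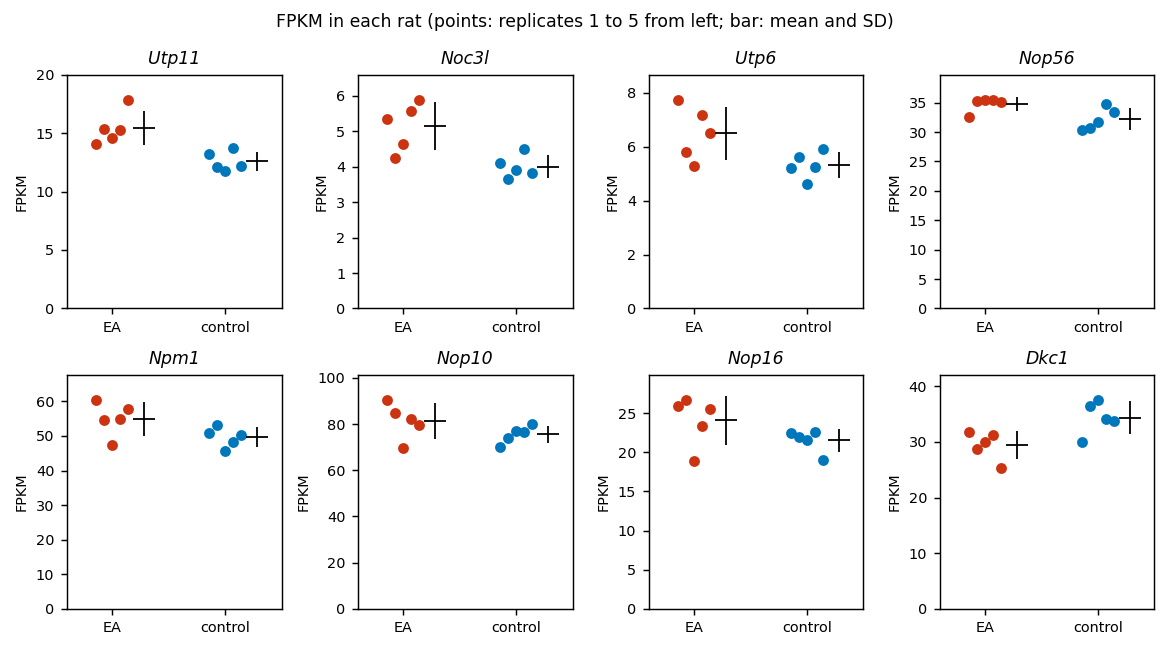
FPKM of 8 nucleolar genes in each rat, EA left of control, with replicates 1 to 5 from left to right in each group and the mean with its SD (n = 5) beside them; every axis starts at 0. The groups separate only for Utp11, and EA 3 is the lowest EA rat for Npm1, Nop10, Nop16 and Utp6.

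The assembly factors of the large subunit held 15 of the genes, 9 of them with a log2 fold change above 0 (median 0.07). Noc3l, the counterpart of a yeast protein that pairs with Noc2 on large subunit precursors (chr1:257469538-257498844, minus strand), had 5.35, 4.26, 4.64, 5.58 and 5.90 FPKM in EA rats against 4.10, 3.65, 3.91, 4.49 and 3.83 FPKM in control rats. EA 2 lay within the control range and the other 4 EA rats lay above it. The log2 fold change was 0.38 (SE 0.10), which passed under DESeq2 (adjusted p = 0.0216) and not under edgeR (adjusted p = 0.178). The exact permutation test gave p = 0.0159 for Noc3l, and leaving out 1 rat at a time kept the log2 fold change between 0.34 and 0.45. Noc2l, its partner gene, lay on the other side of control, with 32.6, 34.2, 32.4, 32.8 and 32.5 FPKM in EA rats against 37.7, 39.5, 36.2, 32.4 and 34.8 FPKM in control rats (log2 fold change -0.11, SE 0.06, edgeR adjusted p = 0.412). Control 4 was the lowest of all 10 rats, and the other control rats lay above all EA rats. Noc2l was singled out after its values were seen.

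Nop16, a protein of early large subunit particles, had 25.9, 26.7, 18.9, 23.3 and 25.6 FPKM in EA rats against 22.5, 21.9, 21.5, 22.7 and 19.0 FPKM in control rats. EA 3 was the lowest of all 10 rats and the other EA rats lay above every control rat (log2 fold change 0.18, SE 0.09, edgeR adjusted p = 0.371). Without EA 3 its log2 fold change was 0.25. Nop53, which in yeast brings the RNA exosome to the large subunit precursor, was the most abundant gene of this group, with 36.2, 32.6, 33.4, 36.2 and 36.3 FPKM in EA rats against 36.7, 36.0, 39.8, 39.0 and 36.1 FPKM in control rats. The groups overlapped, and its log2 fold change was -0.08 (SE 0.05, edgeR adjusted p = 0.477).

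Nol8, a nucleolar protein needed for precursor processing, had the widest spread of the 55 genes. The table holds 2 rows for it on chromosome 17 (14565794 to 14589154 and 15405860 to 15429322, both minus strand), and the row with the higher mean, the first, was the one kept. The kept row reached 0.5 FPKM only in EA 1, 2, 4 and 5 and control 5. The floor and the choice of row therefore favoured high EA values, and its place among the genes above 0 is no independent result. It had 444, 427, 114, 396 and 451 counts in EA rats against 36, 38, 0, 46 and 448 counts in control rats. Control 5 lay with the EA rats, EA 3 lay between the groups, and the log2 fold change of 1.80 had an SE of 0.89 (edgeR adjusted p = 0.392). Without control 5 it was 3.67. The other row had 352, 93, 180, 125 and 107 counts in EA rats against 219, 256, 257, 179 and 92 counts in control rats (log2 fold change -0.10, SE 0.40). With the rows summed, counts were 796, 520, 294, 521 and 558 in EA rats against 255, 294, 257, 225 and 540 in control rats, a log2 fold change of 0.88 (SE 0.25, edgeR adjusted p = 0.198). How alike the 2 copies are was not tested, and since counting can split reads between copies of a gene, the value of either row alone is uncertain.

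Of 49 further large subunit factors, 28 had a log2 fold change above 0 (median 0.02), and 6 lay above and 2 below control at an unadjusted p under 0.05. The 6 became 3 without EA 4 or EA 5 and 2 without control 2. Rbm34, an RNA-binding protein of the nucleolus, had 14.5, 15.2, 15.5, 17.9 and 17.3 FPKM in EA rats against 13.0, 14.03, 13.8, 13.6 and 13.5 FPKM in control rats, with no overlap. Its log2 fold change of 0.27 (SE 0.06) passed under DESeq2 (adjusted p = 0.00965) and not under edgeR (adjusted p = 0.172). Ddx51, a helicase of large subunit assembly, showed the opposite order with no overlap, 6.63 ± 0.28 FPKM in EA rats and 7.79 ± 0.58 FPKM in control rats (SD, n = 5 each; log2 fold change -0.21, SE 0.06, edgeR adjusted p = 0.219). Wdr18, which belongs to the complex of Pelp1, Tex10 and Las1l, had a log2 fold change of -0.21 (SE 0.06, edgeR adjusted p = 0.203). Among 15 genes of the RNA exosome and its helpers, which trim the precursor, only Mtrex, the helicase that feeds the exosome, reached an unadjusted p under 0.05, with 7.93 ± 0.36 FPKM in EA rats and 7.08 ± 0.70 FPKM in control rats (log2 fold change 0.19, SE 0.07, edgeR adjusted p = 0.296). Xrn2, the nuclear exonuclease, and Exosc9, an exosome subunit, each had a log2 fold change of 0.12, with SEs of 0.06 and 0.09.

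Npm1 and Ncl encode nucleophosmin and nucleolin, the most abundant proteins of the nucleolus. Npm1 (chr10:18080950-18090950, minus strand) had 60.4, 54.6, 47.3, 54.96 and 57.8 FPKM in EA rats against 50.8, 53.2, 45.6, 48.2 and 50.4 FPKM in control rats. EA 3 lay among the control rats and the other 4 EA rats lay above all of them (log2 fold change 0.17, SE 0.06, edgeR adjusted p = 0.262). Ncl had 79.1, 80.2, 72.1, 71.3 and 80.0 FPKM in EA rats against 73.0, 76.7, 69.2, 77.5 and 76.0 FPKM in control rats, with overlapping groups and a log2 fold change of 0.06 (SE 0.05).

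Nol3, Nol4 and Nol4l matched the symbol rule but are not known as ribosome biogenesis factors, Nol3 being a repressor of apoptosis. Nol4 had 9.37, 10.3, 10.3, 11.4 and 10.1 FPKM in EA rats against 8.41, 10.4, 8.87, 9.73 and 8.999 FPKM in control rats, with overlap (log2 fold change 0.17, SE 0.06, edgeR adjusted p = 0.265). Nol4l had a log2 fold change of 0.17 (SE 0.10), and Nol3 had 0.01 (SE 0.09), which turned to -0.01 without scaling factors. Without these 3 genes 52 remained, with 33 above 0, a median log2 fold change of 0.06, and 5 above and 1 below control at an unadjusted p under 0.05.

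Some of the genes share bases with others in the annotation. Within 5 of them (Ncl, Noc3l, Nop53, Nop56 and Nop58) lie 15 snoRNA genes, and 5 protein-coding genes overlap 4 of them. Bop1, a factor of large subunit assembly, overlaps the end of Mroh1 on the other strand by 80 bases, and Mroh1 had a log2 fold change of -0.37 (SE 0.06, edgeR adjusted p = 0.0897) where Bop1 had -0.08 (SE 0.06). Larger overlaps on the other strand join Rrp7a with Serhl2 (9853 bases), Bop1 with Scx (2019 bases) and Rrp8 with Ilk (728 bases). The log2 fold changes of Serhl2, Scx and Ilk were 0.01 (SE 0.16), -0.20 (SE 0.21) and 0.03 (SE 0.04). Fbl overlaps Dyrk1b on the same strand (log2 fold change -0.21, SE 0.06). The kit marked the strand, but whether counting used it is not stated, so the reads of such pairs may not be fully separated.

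Genes of the cytosolic ribosomal proteins, which these factors assemble into ribosomes, showed other values. Of 75 cytosolic ribosomal protein genes, 15 had a log2 fold change above 0 (20.0%, median -0.06), against 36 of 55 nucleolar genes (65.5%, median 0.06). Without control 3, in which 65 of the 75 genes lay above their control mean, the 15 became 25 (median -0.02), and without EA 2 and EA 5 they became 23 (median -0.03), while the nucleolar genes above 0 numbered 36 in both fits. At an unadjusted p under 0.05, 4 lay above and 12 below control, and the 4 became 2 without EA 3 and 1 without control 4 or control 5. Rps16, a protein of the small subunit, had 122, 114, 129, 130 and 123 FPKM in EA rats against 124, 172, 143, 170 and 168 FPKM in control rats. Control 1 lay among the EA rats, and the log2 fold change of -0.30 (SE 0.08) passed under DESeq2 (adjusted p = 0.0191) and not under edgeR (adjusted p = 0.183). Rpl37 and Rpl28, of the large subunit, had log2 fold changes of -0.25 (SE 0.07) and -0.14 (SE 0.04), with edgeR adjusted p-values of 0.213. Of 74 mitochondrial ribosomal protein genes, 31 had a log2 fold change above 0 (41.9%, median -0.03), and 1 lay above and 1 below control at an unadjusted p under 0.05. Mrpl47 was called higher by DESeq2, with 7.34 ± 0.45 FPKM in EA rats and 5.72 ± 0.66 FPKM in control rats (SD, n = 5 each; log2 fold change 0.38, SE 0.09, DESeq2 adjusted p = 0.0216, edgeR adjusted p = 0.178). Mrpl52 had -0.19 (SE 0.08) and Mrpl3 0.13 (SE 0.06). The difference between these lists and the nucleolar genes was not tested.

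**Figure D5:**
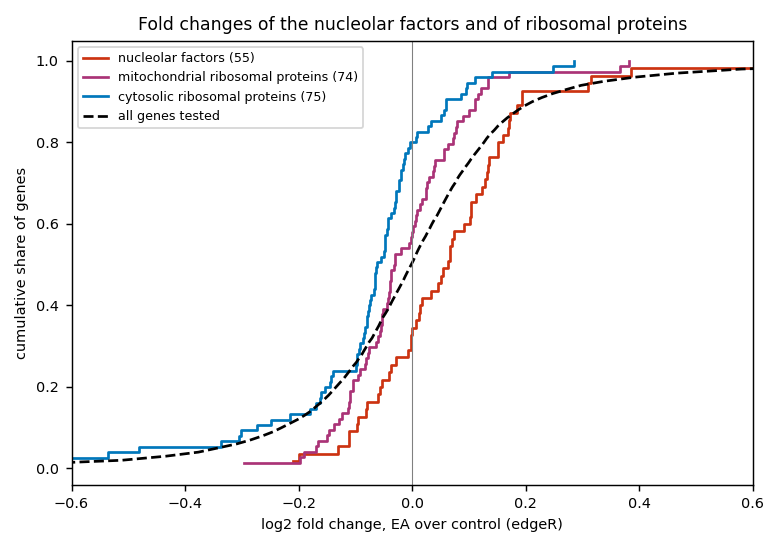
Cumulative share of genes (vertical axis) at or below each log2 fold change, EA over control (horizontal axis), for the 55 nucleolar factors, 74 mitochondrial and 75 cytosolic ribosomal protein genes, and all 15169 genes tested (dashed). At 0 the curve of the nucleolar factors is the lowest (65.5% above 0) and that of the cytosolic ribosomal proteins the highest (20.0% above 0).

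Genes that set the rate of ribosome production were read from a list of 23, which holds MYC and its relatives and the mTOR pathway. Of these, 8 had a log2 fold change above 0 (median -0.02), and 3 lay above and 3 below control at an unadjusted p under 0.05. The 3 above became 1 or 0 without any of 8 libraries (all but EA 1 and EA 4), and the 3 below became 5 without control 1. Without EA 2 and EA 5 together, 1 lay above and 0 below. In the fit of all 10 libraries the 3 genes with the lowest p lay below. Tsc2, which restrains mTOR complex activity, had 44.4, 42.4, 50.5, 44.9 and 45.2 FPKM in EA rats against 51.8, 50.8, 54.4, 51.0 and 51.0 FPKM in control rats, with no overlap (log2 fold change -0.16, SE 0.06, edgeR adjusted p = 0.256). Mnt and Mxd3, partners of MAX that repress at the E-box, had log2 fold changes of -0.17 (SE 0.06) and -0.20 (SE 0.07), with edgeR adjusted p-values of 0.261 and 0.262.

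Failure of ribosome assembly is known to stabilise the protein p53, and 12 genes of that response were read as well. Of these 9 had a log2 fold change above 0 (median 0.06), with 1 above and 2 below control at an unadjusted p under 0.05. Bax, which promotes apoptosis, had 15.3 ± 1.2 FPKM in EA rats and 18.2 ± 1.4 FPKM in control rats, a log2 fold change of -0.22 (SE 0.07, edgeR adjusted p = 0.221). Phlda3 had 5.91 ± 0.32 FPKM in EA rats and 7.44 ± 0.97 FPKM in control rats (-0.31, SE 0.10), and Cdkn1a, an inhibitor of the cell cycle, had 14.8 ± 1.9 FPKM in EA rats and 12.9 ± 1.2 FPKM in control rats (0.22, SE 0.10). None of the 3 was called by edgeR or DESeq2.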

How the data were processed

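Cortical poly(A) RNA of 5 EA and 5 control rats was sequenced as stranded pairs. Per the Methods, the authors used Cutadapt 1.9 for trimming, HISAT2 2.0.4 for alignment, StringTie 1.3.4d for assembly, gffcompare 0.9.8 for merging and ballgown for FPKM. The submitters' processing notes name HISAT2 2.0, StringTie 1.3.0, Bowtie 0.12.2 and the build Rnor_6.0. The FPKM values deposited by the authors are scaled to transcript length and library size, and an FPKM of 0.0001 stands for 0. The estimated counts deposited by the authors are whole numbers, and their derivation is not given in the sources used here.

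The comparison used the quasi-likelihood F test of edgeR 4.0.16 with TMM scaling on these counts, for all genes at 0.5 FPKM or more in 5 or more libraries, with DESeq2 1.42.0 and limma 3.58.1 (log2 of FPKM plus 0.01, 0.1 or 1) as alternatives in R 4.3.3. Single genes were also compared by exact two-sided permutation of log2(FPKM + 0.1) in Python 3.11.15 with scipy 1.17.1. The fits were tested on simulated data. Other alternatives were the expression filter, the scaling, summed rows of a symbol, the replicate block, the removal of EA 2 with EA 5, and the removal of each library in turn. The genes and lists were chosen with earlier results of these data known.

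Genes named in the text are those called by edgeR or DESeq2, those whose groups do not overlap, the 3 with the lowest edgeR p and the most abundant in each role group, Utp11 and Noc3l, which the study names, and up to 3 genes with the lowest p in each further list. Other genes named were chosen after their values were seen. Sequences are from RefSeq. The qPCR of the study was not analysed here.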

Additional observations from a re-analysis of the deposited data

Results flagged for a closer look

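In 10 of the 110 groups of 5 rats examined (55 genes, EA and control), 9.09%, 1 rat stood far from the other 4. Chance alone marks about 1 in 20 groups, and no test was made of the number. Noc2l was 34.2 FPKM in EA 2, against 32.4 to 32.8 FPKM in the other EA rats. Nol11, which links transcription of the ribosomal DNA to processing, was 4.97 FPKM in EA 3, against 5.98 to 6.25 FPKM in the others. Nop56 was 32.6 FPKM in EA 1, against 35.1 to 35.5 FPKM, and Rrp12 was 5.18 FPKM in EA 5, against 6.47 to 6.79 FPKM. Nol8 was marked in both groups, at 0.496 FPKM in EA 3, against 1.46 to 1.67 FPKM in the other EA rats, and at 1.51 FPKM in control 5, against 0 to 0.173 FPKM in the other control rats. In control rats Nol6 was 13.7 FPKM in control 1, against 16.5 to 17.2 FPKM, Rrp1b was 4.07 FPKM in control 2, against 4.70 to 4.85 FPKM, Nol9 was 7.54 FPKM in control 3, against 5.71 to 6.22 FPKM, and Utp18 was 5.78 FPKM in control 3, against 7.18 to 7.54 FPKM.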

How the results depend on the processing

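No nucleolar gene was called by edgeR under any scaling, filter or left-out library. DESeq2 called 2 higher, and 69 genes higher and 97 lower over the whole table, against 3 and 0 in edgeR. Limma called 1 higher and 1 lower over the whole table with pseudocounts of 0.01 and 0.1, and 3 higher and 1 lower with 1. Without EA 2 and EA 5 edgeR called 2 higher and 2 lower. Whether the replicate numbers pair the rats is not stated and was not tested. Correlations of same-numbered deviations were 0.001 to 0.078, and 3 of 5 EA rats were closest to their own number. With the replicate number as a block 0 genes of the table were called higher. Genes called over the whole table ranged over 1 to 5 higher and 0 to 1 lower when 1 library was left out.

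The median log2 fold change of the nucleolar genes was 0.039, 0.0384 and 0.0328 in limma with pseudocounts of 0.01, 0.1 and 1, and 0.0409 without scaling factors; it ran over 0.0391 to 0.0869 when 1 library was left out. The count at an unadjusted p under 0.05 below control was 2 in each limma fit and without scaling factors, 0 without EA 2 and EA 5, and 0 to 2 when 1 library was left out (0 without control 3, 2 without control 2 or control 4). Above control it ran over 6 to 12, with 12 without EA 3. Groups that did not overlap numbered 2 higher and 1 lower without EA 2 and EA 5 (1.94% and 4.29% of all genes), and 1 to 4 higher and 0 to 2 lower when 1 library was left out. The 4 came without EA 3 (2.41% of all genes) and the 2 without control 1 (6.38%). An exact permutation p under 0.05 was found for 8 genes on TMM-scaled CPM (14.5%, against 13.2% of all genes), and for 2 (3.64%, against 9.91%, without control 3) to 9 (16.4%, against 13.7%, without EA 3) when 1 library was left out.

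Of the lists, the median of the further small subunit factors was 0.0169, 0.0168 and 0.0158 in limma with the 3 pseudocounts, that of the large subunit factors -0.015, -0.0149 and -0.0133, and that of the mitochondrial ribosomal proteins -0.053, -0.0526 and -0.0492, with -0.0526 without scaling factors. That of the snoRNP factors was -0.0362 without EA 2 and EA 5. When 1 library was left out, medians ran over 0.0275 to 0.0715 for the polymerase I machinery, 0.016 to 0.0555 for small and 0.0001 to 0.04 for large subunit factors, 0.0018 to 0.0896 for snoRNP factors, -0.0334 to 0.0676 for the exosome, -0.0524 to -0.0125 for the upstream regulators, 0.0155 to 0.063 for the p53 genes, -0.0753 to -0.0248 for cytosolic and -0.0301 to 0.0129 for mitochondrial ribosomal proteins.

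Nol3 turned to -0.0053, -0.0053 and -0.0048 in limma with the 3 pseudocounts, and to -0.0055 without scaling factors, and ran over -0.0206 to 0.074 when 1 library was left out. Rrp7a turned to -0.0047, -0.0047 and -0.0045 in limma and to -0.0032 without scaling factors, and ran over -0.0096 to 0.0401. Polr1e ran over -0.0017 to 0.1039. The cause of these shifts was not tested.

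The estimated counts are not read counts, so the depth behind single values is uncertain. With 5 rats a group, values that miss the threshold do not show that the groups were alike. Cages and the dates of treatment or dissection are not stated, so batch and group cannot be told apart.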

Other observations

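The snoRNAs that the nucleolar particles carry were read after their sum by class had been seen, so what follows describes these 10 libraries. Poly(A) selection captures few mature snoRNAs, and fragments of host transcripts can be counted to them. Summed over all snoRNA genes, EA rats had 839, 768, 881, 940 and 878 FPKM against 774, 721, 716, 732 and 780 FPKM in control rats, with EA 2 within the control range and the other EA rats above it. The means were 861 ± 63 FPKM in EA rats and 745 ± 30 FPKM in control rats (SD, n = 5 each), a log2 difference of 0.21. The unadjusted exact permutation p of 0.0238 cannot serve as a test, since this sum was chosen after it was seen. Leaving out 1 library gave differences of 0.17 to 0.25, and without EA 2 and EA 5 the difference was 0.25.

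Single snoRNA genes were not called. Of 225 tested, edgeR and DESeq2 called 0 in either direction, 15 lay above and 1 below control at an unadjusted p under 0.05 (6.67% and 0.444%, against 6.59% and 7.15% of all genes), and 137 had a log2 fold change above 0 (median 0.21). The 15 became 9 without EA 4. SNORD14 genes within Hspa8, a chaperone gene, were among those with the lowest p. The row with the higher level had 26.6, 15.8, 27.1, 18.0 and 28.8 FPKM in EA rats against 7.66, 3.14, 12.2, 7.31 and 18.6 FPKM in control rats (log2 fold change 1.25, SE 0.39, edgeR adjusted p = 0.223), and the other had a log2 fold change of 1.05 (SE 0.35). Hspa8 itself had a log2 fold change of 0.20 (SE 0.07, edgeR adjusted p = 0.272).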
